A study of Mus musculus with 20 samples.

Results

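The first hour of macrophage activation was compared between cells pretreated with dimethyl itaconate and cells that were not, by setting one response against the other for every gene. The quantity is the response difference, which is the log2 fold change from 0 to 1 h in pretreated cells (DI) minus the same fold change in unpretreated cells (Ctrl). It was computed from the 8 libraries collected at 0 and 1 h, of 20 libraries in the series. Of the 22165 genes in the count table, 10663 had enough reads across all 20 libraries to be tested. Some of them had few reads at 0 and 1 h, where a difference could hardly be called. A negative value means that the level grew less, or shrank more, in DI than in Ctrl.

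All cells were bone marrow-derived macrophages from wild-type C57BL/6 mice, grown from marrow with the growth factor m-CSF for 7 days. The 4 groups were DI at 0 h, DI at 1 h, Ctrl at 0 h and Ctrl at 1 h, with 2 libraries each. DI cells had been kept for 12 h in 250 µM dimethyl itaconate, a membrane-permeable ester related to the macrophage metabolite itaconate, before the stimulus, and a vehicle for Ctrl cells is not given in the sources used here. The stimulus, for cells of both kinds, was lipopolysaccharide (LPS), a component of bacterial outer membranes, together with interferon gamma (IFNg). Nothing in the labels says whether the 2 libraries of a group came from separate mice or cultures, so the p-values measure the spread between these libraries, which may be technical.

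LPS is sensed by the receptor TLR4, and within minutes its adaptors switch on the transcription factor NF-kB and the MAP kinases. Genes with open promoters answer first, without new protein synthesis: immediate-early transcription factors, early cytokines and chemokines, and inhibitors such as IkBa and A20 that later restrain the signal. IFNg acts in parallel through the kinases JAK1 and JAK2. Dimethyl itaconate is an electrophile that reacts with thiols, and it is known to activate the antioxidant factor NRF2 and stress-responsive translation control, and to limit the induction of IkBz, the nuclear NF-kB partner encoded by Nfkbiz, and of genes that depend on it.

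The libraries were 3' end counts with totals of 4126920 to 6725447 reads in DI and 4491512 to 8938983 in Ctrl at these times. They differed in complexity along with the treatment. In all, 11143 to 11372 genes had no read in DI libraries, against 9301 to 10074 in Ctrl libraries, and only 333 to 628 genes had 1 to 3 reads in DI, against 1370 to 1436 in Ctrl. An estimate of reads per original molecule, from how often genes with 4 to 12 expected reads were at 0, came to 3.58 to 6.89 for DI libraries and to 1.82 to 2.11 for Ctrl libraries. Replicates spread more in DI, with a median coefficient of variation over genes of 22.1% at 0 h and 16.5% at 1 h, against 10.8% and 13.4% in Ctrl. Fewer transcripts per cell cannot be told apart from fewer cells or a library built from less RNA. Macrophage markers, 10 genes such as Csf1r, Adgre1, Cd68 and Lyz2, summed to 3820 to 3830 CPM (read counts scaled to a fixed library total) in DI at 0 h and 3160 to 3740 in DI at 1 h, and to 4380 to 4530 in Ctrl at 0 h and 4380 to 5000 in Ctrl at 1 h. The summed dendritic cell markers were 1.5 to 5.3 CPM in DI and 6.86 to 10.5 CPM in Ctrl, those of lymphocytes at most 1.12 CPM in DI and 3.73 CPM in Ctrl with Cd3e and Ncr1 at 0 throughout, and those of fibroblasts 17.4 to 29 CPM in DI and 33.9 to 49.1 CPM in Ctrl. Neutrophil markers summed to 316 to 398 CPM in DI and 395 to 538 CPM in Ctrl. Erythroid, platelet and mast cell markers summed to 162 to 327 CPM in DI and 162 to 223 CPM in Ctrl, with Hbb-bs at 0. With the counts of each library divided by its estimated reads per molecule, 27 genes were called in the response difference (6 higher and 21 lower), of which 22 were among the 27 called from the counts as deposited. The part of the cell type markers in the results was not tested.

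Few genes passed the test for a different answer to the stimulus, and nearly all of those answered less in DI. Of 10663 genes, 27 were called (0.253%), meaning an adjusted p under 0.05 by edgeR's quasi-likelihood test with Benjamini-Hochberg adjustment. The response was lower in DI for 23 of them (0.216%) and higher for 4 (0.0375%). The lower group held the T-cell costimulatory ligand Tnfsf9, the NF-kB feedback genes Tnfaip3 and Traf1, the immediate-early factors Egr1, Egr2 and Ier2, the phosphatases Dusp2 and Dusp5, the chemokine Cxcl2, cyclooxygenase-2 (Ptgs2) and the stress genes Ppp1r15a and Slc7a11. The higher group was Iigp1, Mapk8ip3, Tmem67 and Arid5a. Over all genes tested the median response difference was 0.05 log2 units, the 5th and 95th percentiles were -1.53 and 1.49, and 518 genes had an unadjusted p under 0.05, of which 277 were higher and 241 lower. The median standard error was 0.641 log2 units. The last gene called, Bcl2a1c, had an unadjusted p of 1.21e-04 by edgeR, so a call needed a difference of several standard errors. The smallest called differences were -1.72 log2 units, with standard errors of 0.36 (Cited2) and 0.37 (Marcksl1). Smaller differences were not resolved for a typical gene, and a list without calls does not show equal responses. At the edge of the call, Marcksl1 and Ier2 (adjusted p = 0.0378 each) and Bcl2a1c (adjusted p = 0.0479) were just inside by edgeR, and Il27, Cxcl10 and Dusp1 (adjusted p = 0.0549 each) were just outside. Under limma-voom, with and without quality weights, the calls of Lrrc63, Bcl2a1c, Gem, Dusp2, Foxp4, Gpr85, Ier2, Ptgs2, Dusp5, Marcksl1, Mapk8ip3, Tmem67 and Arid5a were lost. A fit of only the 8 libraries at 0 and 1 h lost the calls of the same genes apart from Lrrc63 and Gpr85, and also those of Ednrb, Cited2 and Iigp1.

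**Figure D1:**
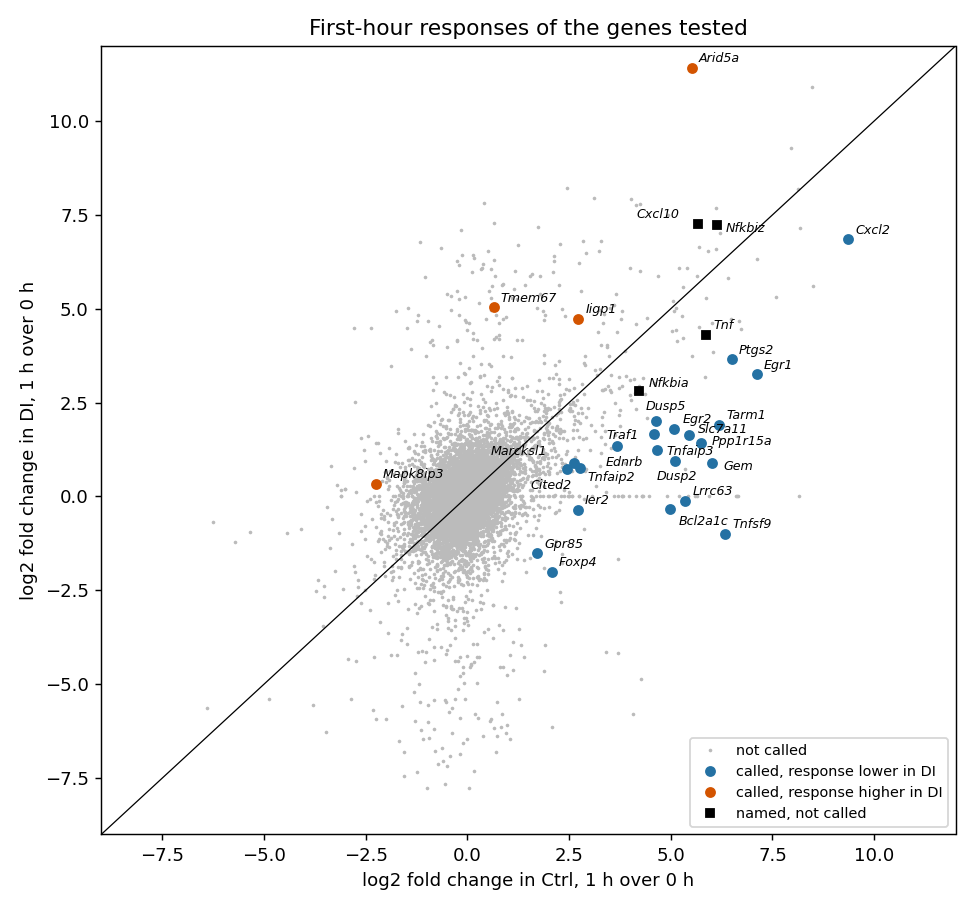
Each grey point is 1 of 10662 genes tested, placed by its log2 fold change from 0 to 1 h in Ctrl (horizontal axis) and in DI (vertical axis), and the line marks equal responses. The 22 genes shown with a lower response in DI (blue) lie below the line, most of them between 2 and 7 on the Ctrl axis, and the 4 with a higher response (orange) lie above it; the fitted DI value of Arid5a depends on its absence from both DI libraries at 0 h.

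The largest response difference among the called genes was that of Tnfsf9, which encodes the ligand of the costimulatory receptor 4-1BB. In DI it stood at 7.42 and 7.95 CPM at 0 h and at 4.42 and 3.35 CPM at 1 h, and in Ctrl at 4.88 and 4.44 CPM at 0 h and 243 and 510 CPM at 1 h. The gene was thus somewhat higher in DI before the stimulus, and both DI libraries at 1 h were far below both Ctrl libraries. The fitted response was -0.999 log2 units in DI and 6.33 in Ctrl, a difference of -7.33 ± 0.68 (SE; edgeR adjusted p = 1.02e-06). It was -6.69, still called, without the second Ctrl library at 1 h.

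Tnfaip3, Traf1 and Tnfaip2, called genes of the NF-kB primary response, also stood higher in both DI libraries before the stimulus, and for each of them both DI libraries at 1 h were above both at 0 h. Tnfaip3, which encodes the ubiquitin-editing inhibitor A20, was at 46.1 and 56.6 CPM in DI at 0 h and 116 and 126 CPM in DI at 1 h. In Ctrl, Tnfaip3 was at 15.3 and 18.4 CPM at 0 h and 421 and 435 CPM at 1 h. DI libraries did not overlap Ctrl libraries at either time, and the order of the treatments turned over within the hour. The response difference was -3.43 ± 0.49 log2 units (edgeR adjusted p = 4.09e-04), with a fitted response of 1.24 in DI and 4.67 in Ctrl. Traf1, an adaptor of TNF-family receptors, followed the same course, with 24.6 and 28.2 CPM in DI at 0 h and 97.3 and 71.7 CPM in DI at 1 h. In Ctrl, Traf1 was at 11.5 and 14.4 CPM at 0 h and 357 and 265 CPM at 1 h. Its response difference was -2.91 ± 0.41 (edgeR adjusted p = 4.02e-04). Tnfaip2, a gene named for its induction by TNF, was at 688 and 693 CPM in DI at 0 h and 1080 and 1260 CPM in DI at 1 h. In Ctrl, Tnfaip2 was at 236 and 229 CPM at 0 h and 1720 and 1450 CPM at 1 h. For Tnfaip2 the difference was -2.01 ± 0.40 (edgeR adjusted p = 0.021), and without 1 of 5 libraries in turn (both at Ctrl 0 h, both at DI 1 h and the first at Ctrl 1 h) the adjusted p was above 0.05, at most 0.129.

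A chemokine and an enzyme of this program were likewise higher in both DI libraries at 0 h and lower in both at 1 h. Cxcl2, which draws neutrophils, stood at 23.9 and 32.5 CPM in DI at 0 h and 3960 and 2560 CPM in DI at 1 h. In Ctrl, Cxcl2 was at 13.0 and 9.48 CPM at 0 h and 6880 and 7890 CPM at 1 h. The fitted responses of 6.85 in DI and 9.35 in Ctrl gave a difference of -2.50 ± 0.42 log2 units (edgeR adjusted p = 0.00341). Ptgs2, the inducible prostaglandin-forming cyclooxygenase, was at 13.8 and 7.15 CPM in DI at 0 h and 167 and 93.9 CPM in DI at 1 h. In Ctrl, Ptgs2 was at 5.36 and 5.95 CPM at 0 h and 448 and 578 CPM at 1 h. Its difference was -2.85 ± 0.48 (edgeR adjusted p = 0.00341), but the call of Ptgs2 was lost under both limma-voom fits and in the fit of only the 8 libraries, with an adjusted p of up to 0.0785.

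Most other members of the NF-kB primary response leaned the same way without passing the test. Of 36 listed genes, all tested, 6 were called lower (Tnfsf9, Tnfaip3, Traf1, Ptgs2, Cxcl2 and Tnfaip2) and 0 higher, where 0.216% of all genes were called lower. The response difference was negative in 31 and positive in 5, with a median of -1.05 log2 units, against 4989 negative and 5671 positive and a median of 0.05 over all genes tested. The median fitted response of the list was 1.87 in DI and 3.57 in Ctrl, and the median difference between DI and Ctrl was -0.03 log2 units at 0 h and -1.24 at 1 h. Over all genes tested the median fitted response in Ctrl was -0.03, so most of them are no like comparison for this list. All lists here were written with earlier results of these data known, and no test was made of a list. Without adjustment 17 members of this list were lower and 3 higher at a p under 0.05 by edgeR. Tnf, the founding early cytokine, stood at 8.48 and 10.3 CPM in DI at 0 h and 184 and 190 CPM in DI at 1 h. In Ctrl, Tnf was at 11.1 and 13.9 CPM at 0 h and 817 and 643 CPM at 1 h. Its response difference was -1.56 ± 0.39 (edgeR adjusted p = 0.137), with a 95% interval of -2.36 to -0.76 that takes no account of the number of genes tested. Nfkbia, which encodes IkBa, had a difference of -1.42 ± 0.37 (edgeR adjusted p = 0.191). The chemokine gene Ccl3 had -1.88 ± 0.45 (edgeR adjusted p = 0.0966), and the adhesion molecule gene Icam1 had -1.11 ± 0.36 (edgeR adjusted p = 0.528).

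**Figure D2:**
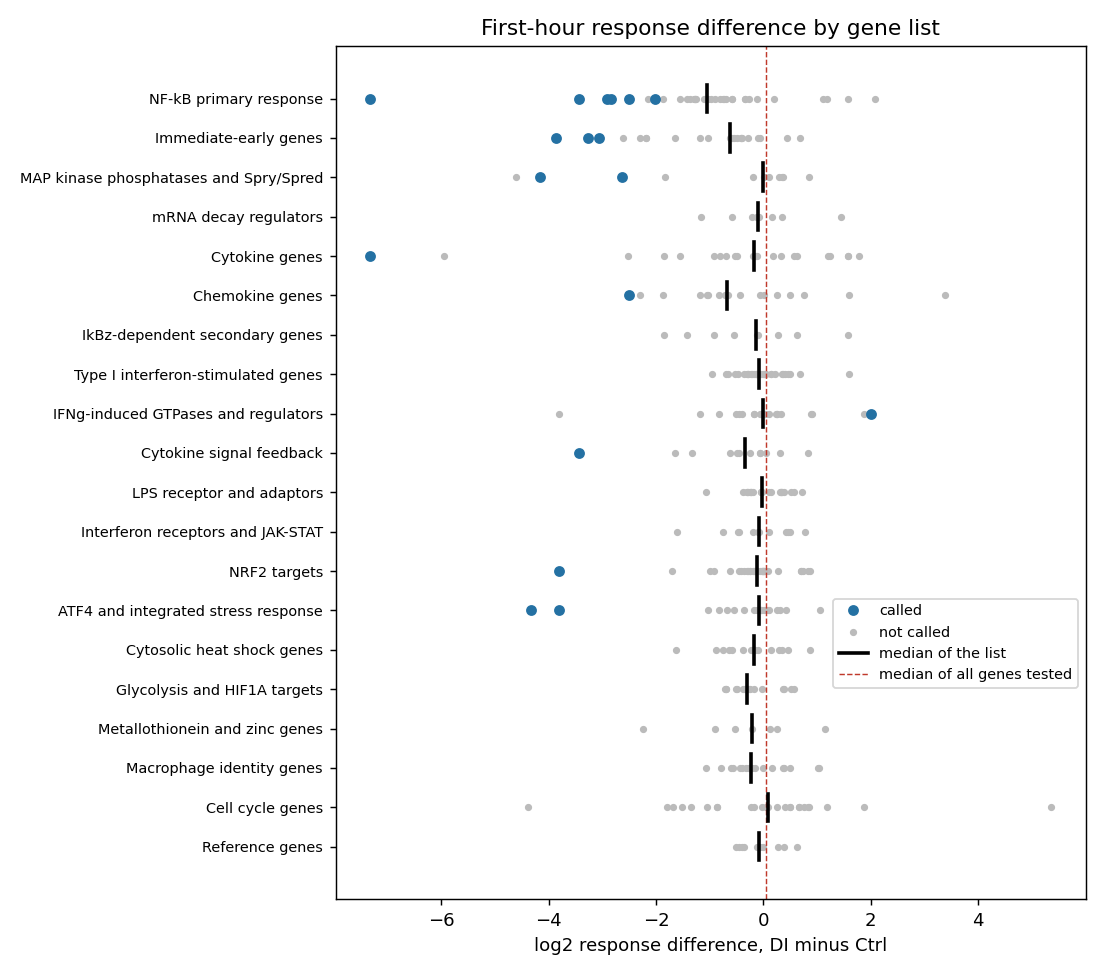
Log2 response difference (DI minus Ctrl, horizontal axis) of every tested member of 20 gene lists, with called genes as large blue points, other genes in grey, the median of each list as a black bar and the median of all genes as a dashed line. The medians of the NF-kB primary response (-1.05), chemokine genes (-0.68) and immediate-early genes (-0.63) stand farthest to the left of the fitted medians, and reference genes (-0.08) lie beside the dashed line. With genes at 0 in a group set at the floor of 3 reads, the order is another, with -1.43 for IkBz-dependent genes, -1.06 for the NF-kB primary response, -0.76 for cytokine genes, -0.63 for immediate-early genes and -0.57 for chemokine genes. These medians mix fitted values with bounds and are no estimates. For a gene at 0 in DI at 0 h, such as Il6, the true difference could be higher than its bound.

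Nfkbiz ran against that lean. Its product IkBz is needed for a later set of genes such as Il6 and Il12b. It was at 4.59 and 4.03 CPM in DI at 0 h and 764 and 536 CPM in DI at 1 h. In Ctrl, Nfkbiz was at 35.3 and 35.6 CPM at 0 h and 2510 and 2460 CPM at 1 h. Both DI libraries were below both Ctrl libraries at each time, with a fitted log2 fold change of DI over Ctrl of -3.04 at 0 h and -1.94 at 1 h. The fitted response was 7.24 log2 units in DI and 6.13 in Ctrl, so the response difference was 1.11 ± 0.38 and did not pass the test (edgeR adjusted p = 0.645). The fitted distance of DI below Ctrl was thus larger before LPS and IFNg were added than 1 h later, but this change was not resolved.

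Responses of several cytokine genes could not be resolved. Il6 and Il12b, which are listed as IkBz-dependent, and Il1b and Ifnb1, which are not, had no read in either DI library at 0 h. Their fitted fold changes in DI depend on the small count added by the fit, and a lower bound was taken against a floor of 3 reads over the 2 libraries. These bounds count reads, at an estimated 3.58 and 5.65 reads per molecule in the 2 libraries, and would be lower in molecules. Il6 was at 1.41 and 2.51 CPM in DI at 1 h, at least 9.36-fold above that floor, and 66.1-fold higher at 1 h than at 0 h in Ctrl, where it reached 32.7 and 28.2 CPM. Il1b, the gene of interleukin 1 beta, was at 5.63 and 3.49 CPM in DI at 1 h, at least 21.8-fold above the floor, against 67.9-fold in Ctrl, where it reached 120 and 165 CPM. Il12b was at 0.402 and 0.837 CPM in DI at 1 h and 52.3 and 74.2 CPM in Ctrl at 1 h. Both DI libraries were far below both Ctrl libraries for each of Il6, Il1b and Il12b at 1 h, but whether the fold change differed was not detectable at this depth. Of the 12 genes listed as IkBz-dependent 9 were tested and 0 were called by edgeR, with 1 at an unadjusted p under 0.05. Il12a and Il23a passed the filter with only 1 and 24 reads in the 8 libraries at 0 and 1 h, so neither could be resolved. The median difference of the list was -0.13 log2 units, or -1.43 with the 5 genes that were at 0 in a group set at the floor. The second median rests partly on bounds and is no estimate, and for Il6 and Il12b the true difference could be higher.

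Immediate-early genes, which encode transcription factors and are switched on by MAP kinases and the serum response factor, gave 3 calls, all lower in DI, among 23 tested genes, where 0.216% of all genes were called lower. Egr1 was at 5.66 and 10.6 CPM in DI at 0 h and 79.6 and 78.2 CPM in DI at 1 h. In Ctrl, Egr1 was at 4.64 and 3.12 CPM at 0 h and 505 and 584 CPM at 1 h. The response was 3.25 log2 units in DI and 7.12 in Ctrl, a difference of -3.86 ± 0.49 (edgeR adjusted p = 1.10e-04). Egr2, its close relative, was at 11 and 12.3 CPM in DI at 0 h and 42.2 and 39.2 CPM in DI at 1 h. In Ctrl, Egr2 was at 3.68 and 2.32 CPM at 0 h and 122 and 83.2 CPM at 1 h. Egr2 was thus higher in DI before the stimulus and lower after it, with a difference of -3.27 ± 0.59 (edgeR adjusted p = 0.00722); the adjusted p was 0.0937 without the second Ctrl library at 0 h and 0.0721 without the first Ctrl library at 1 h. Ier2 was at 9.90 and 3 CPM in DI at 0 h and 2.61 and 6.97 CPM in DI at 1 h. In Ctrl, Ier2 was at 13.4 and 11.2 CPM at 0 h and 85.5 and 75.9 CPM at 1 h. Its difference was -3.07 ± 0.66 (edgeR adjusted p = 0.0378), and it was called in only 2 of the 8 fits that left out 1 library (without the second DI library at 0 h or at 1 h), with an adjusted p of up to 0.52 in the others. The value of Ier2 was -2 without the first DI library at 0 h and -3.97 without the second DI library at 1 h.

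Of 25 immediate-early genes 23 were tested, and 21 had a negative and 2 a positive difference, against 4989 negative and 5671 positive over all genes tested. The median of the list was -0.63 log2 units. Fos was at 59.9 and 61.6 CPM in DI at 0 h and 63.7 and 36.8 CPM in DI at 1 h. In Ctrl, Fos was at 58.5 and 61.8 CPM at 0 h and 247 and 238 CPM at 1 h. The 4 libraries at 0 h lay within 58.5 to 61.8 CPM, and only the Ctrl libraries were above that range at 1 h by a wide margin. Its difference of -2.29 ± 0.64 did not pass the test (edgeR adjusted p = 0.324). Jun and Junb, the partners of Fos in the AP-1 factor, had differences of -0.40 ± 0.42 and -0.48 ± 0.42 log2 units (edgeR adjusted p = 1 for each), with intervals of -1.27 to 0.47 and -1.36 to 0.39. Fosb was not tested, since it had 0 reads in all DI libraries at 0, 1 and 2 h and at most 38 reads in a Ctrl library.

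The dual-specificity phosphatases, which switch MAP kinases off again, gave 2 calls, both lower in DI, among 11 tested genes of 14 listed with Spry and Spred inhibitors. Over all genes 0.216% were called lower, and the list's median difference was 0.00. Dusp5, a nuclear phosphatase of ERK, was at 55.3 and 129 CPM in DI at 0 h and 354 and 385 CPM in DI at 1 h. In Ctrl, Dusp5 was at 24.3 and 21.5 CPM at 0 h and 733 and 411 CPM at 1 h. Its difference was -2.64 ± 0.52 log2 units (edgeR adjusted p = 0.021), and it was called in 2 of the 8 fits that left out 1 library (without the first DI library at 0 h or the second Ctrl library at 1 h), with an adjusted p of up to 0.18 in the others and a difference of -1.90 without the second DI library at 0 h. Dusp2 was at 4.06 and 0.115 CPM in DI at 0 h and 3.42 and 3.77 CPM in DI at 1 h. In Ctrl, Dusp2 was at 3.28 and 2.42 CPM at 0 h and 105 and 94.0 CPM at 1 h. The pair of DI libraries at 0 h stood far apart, and the difference of -4.15 ± 0.87 (edgeR adjusted p = 0.0335) shrank to -0.38 (adjusted p = 1) without the first of them; with the second left out it was -5.28, the only such fit of 8 that called it. Under limma-voom the Dusp2 difference was smaller and not called. Dusp1, the phosphatase that shuts off p38 and JNK in macrophages, missed the call with -1.83 ± 0.41 (edgeR adjusted p = 0.0549). It was at 149 and 106 CPM in DI at 0 h and 565 and 703 CPM in DI at 1 h. In Ctrl, Dusp1 was at 40.8 and 46.5 CPM at 0 h and 810 and 738 CPM at 1 h.

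**Figure D3:**
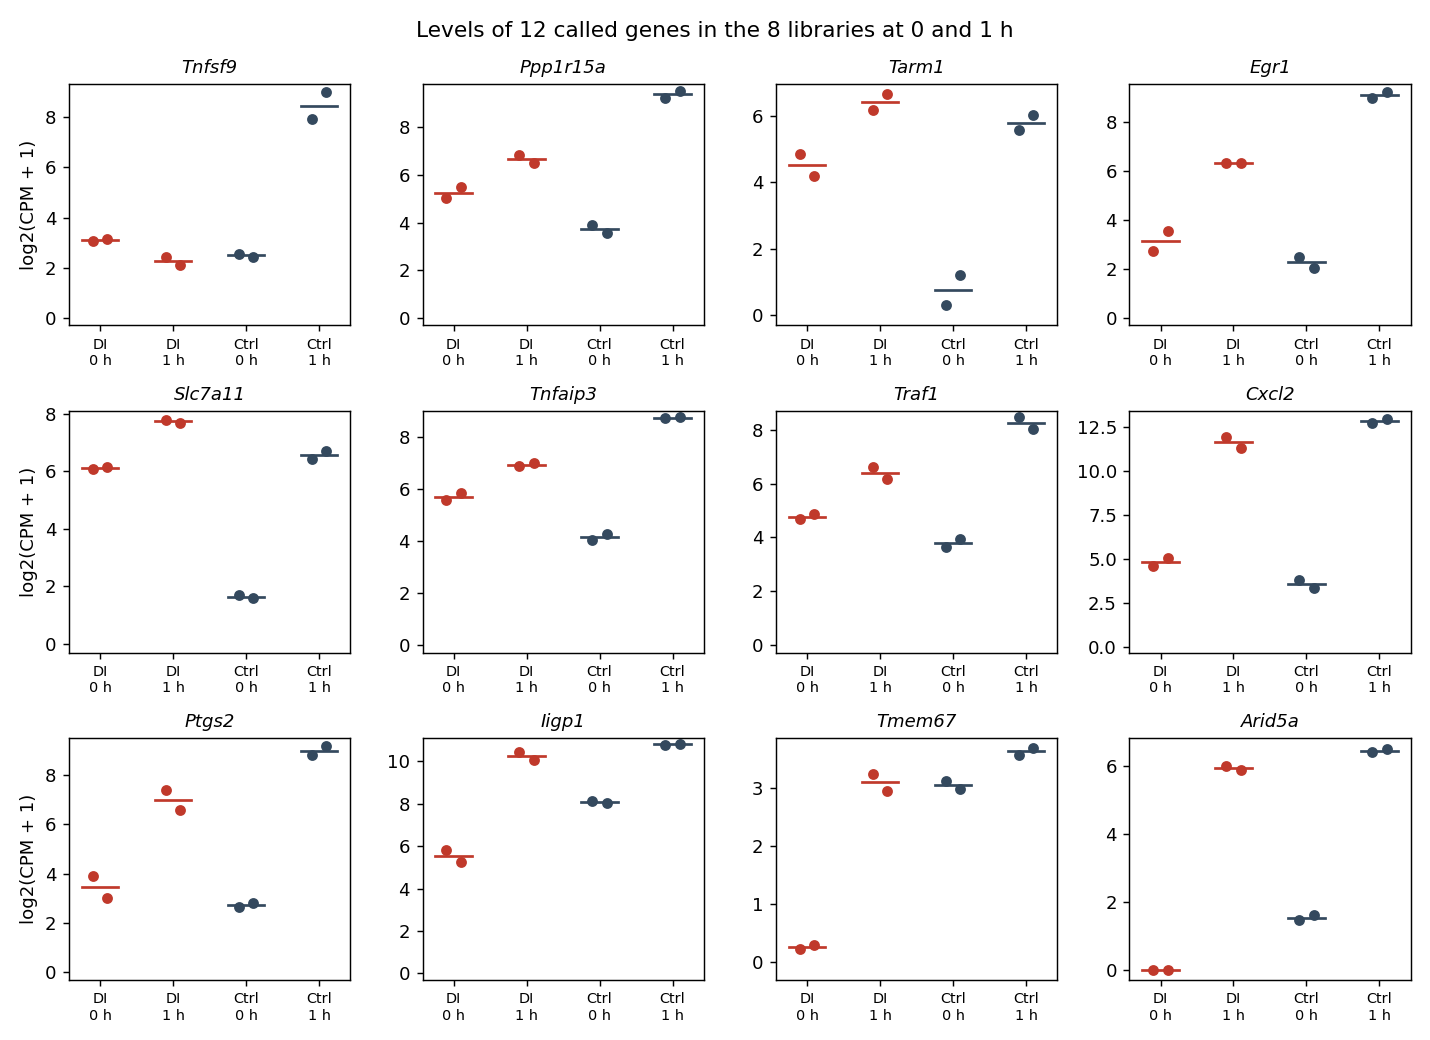
Levels of 12 called genes as log2(CPM + 1) in each of the 8 libraries (points) with the mean of 2 libraries (bars), DI in red and Ctrl in dark blue. Tnfsf9 is low in DI at both times and high in Ctrl at 1 h only, Slc7a11 and Tarm1 are higher in DI at both times with a smaller step, and Iigp1, Tmem67 and Arid5a start lower in DI and come close to Ctrl at 1 h.

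A second kind of called gene stood higher in DI both before and after the stimulus. Slc7a11, the cystine importer subunit that feeds glutathione synthesis and is a target of NRF2 and ATF4, was at 66.1 and 69.8 CPM in DI at 0 h and 220 and 204 CPM in DI at 1 h. In Ctrl, Slc7a11 was at 2.24 and 2.02 CPM at 0 h and 85.1 and 103 CPM at 1 h. Both DI libraries were above both Ctrl libraries at each time, and the distance shrank to 1.17 log2 units at 1 h, against 4.98 at 0 h. The response difference was -3.81 ± 0.43 (edgeR adjusted p = 1.53e-05). Tarm1, an activating receptor of myeloid cells, had the same form, with 28.1 and 17.2 CPM in DI at 0 h and 70.5 and 99.2 CPM in DI at 1 h. In Ctrl, Tarm1 was at 0.24 and 1.31 CPM at 0 h and 46.3 and 64.1 CPM at 1 h. The fitted distance of DI above Ctrl for Tarm1 was only 0.62 ± 0.35 log2 units at 1 h, and 0.61 ± 0.35 at 2 h (edgeR adjusted p = 0.339). The response difference of Tarm1 was -4.28 ± 0.59 (edgeR adjusted p = 3.24e-04). The Tarm1 value was -3.46 without the first Ctrl library at 0 h and -5.80 without the second, and it was called both times. Ednrb, a receptor for endothelins, was at 159 and 141 CPM in DI at 0 h and 482 and 274 CPM in DI at 1 h. In Ctrl, Ednrb was at 6.32 and 6.15 CPM at 0 h and 79.2 and 80.5 CPM at 1 h. For Ednrb the difference was -2.34 ± 0.40 (edgeR adjusted p = 0.00341), and the DI level remained 2.24 log2 units above Ctrl at 1 h. The call of Ednrb was lost in the fit of only the 8 libraries (edgeR adjusted p = 0.0785).

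Ppp1r15a, which encodes GADD34, the phosphatase subunit that reverses eIF2a phosphorylation, was higher in DI before the stimulus and lower after it. It stood at 31.8 and 43.3 CPM in DI at 0 h and 113 and 88.1 CPM in DI at 1 h. In Ctrl, Ppp1r15a was at 13.8 and 10.7 CPM at 0 h and 589 and 726 CPM at 1 h. The fitted responses were 1.41 log2 units in DI and 5.74 in Ctrl, and the difference was -4.33 ± 0.42 (edgeR adjusted p = 1.67e-06). Of 21 genes listed under ATF4 and the integrated stress response 18 were tested. Ppp1r15a and Slc7a11 were called lower, where 0.216% of all genes were, and the other members gave 0 calls by edgeR. The list's median was -0.08 log2 units.

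NRF2 targets stood far higher in DI at both times, and 1 of them was called in the response difference. Of 35 listed genes 32 were tested, and 1 (Slc7a11) was called lower and 0 higher, where 0.216% of all genes were called lower. Without adjustment 2 members were lower and 0 higher at a p under 0.05 by edgeR. The median response difference was -0.12 log2 units. The list's median level in DI was 2.21 log2 units above Ctrl at 0 h and 1.94 above it at 1 h. Hmox1, the heme-degrading enzyme, was at 232 and 193 CPM in DI at 0 h and 183 and 144 CPM in DI at 1 h. In Ctrl, Hmox1 was at 18.9 and 27.9 CPM at 0 h and 24.9 and 18.3 CPM at 1 h. Its response difference was -0.25 ± 0.43 (edgeR adjusted p = 1, interval -1.14 to 0.64). The glutathione synthesis gene Gclm had -0.01 ± 0.39 and the sulfiredoxin gene Srxn1 0.05 ± 0.38, each with an edgeR adjusted p of 1. For Gclm the interval was -0.82 to 0.81 and for Srxn1 -0.74 to 0.83. Txnrd1 leaned lower without a call, with -1.70 ± 0.61 (edgeR adjusted p = 0.707, interval -2.97 to -0.43). Its DI libraries at 0 h stood far apart, at 401 and 1340 CPM.

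**Figure D4:**
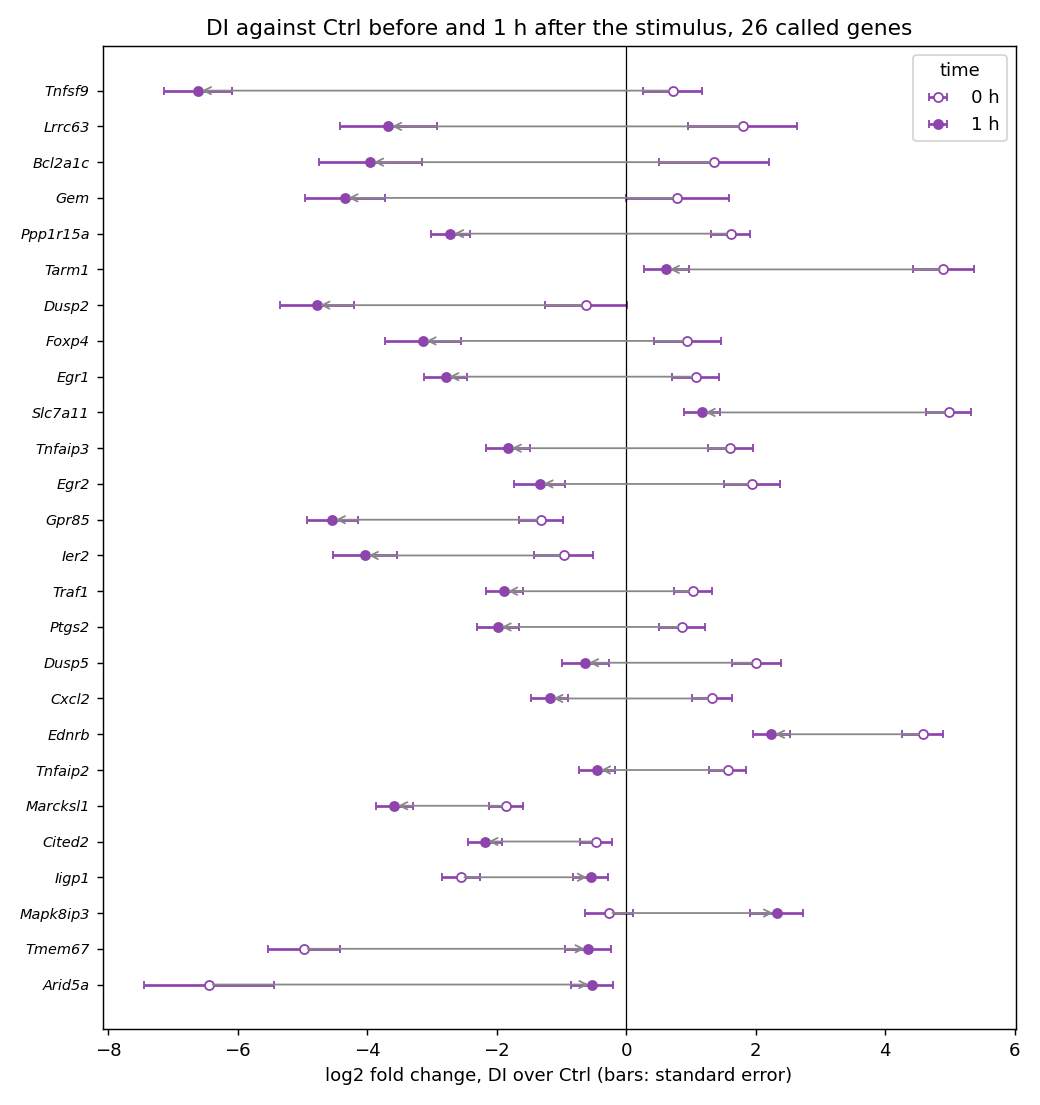
Log2 fold change of DI over Ctrl at 0 h (open points) and at 1 h (filled points) for 26 called genes, with standard errors, ordered by response difference; the arrow between the 2 points of a gene is that difference. Slc7a11, Tarm1 and Ednrb start at 4.58 or more and end above 0, Tnfsf9 ends at -6.61, and Iigp1, Tmem67 and Arid5a start far below 0 and end near it.

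The remaining genes with a lower response in DI belong to no common list. Gpr85, an orphan G protein-coupled receptor, was at 7.25 and 8.18 CPM in DI at 0 h and 3.62 and 1.95 CPM in DI at 1 h. In Ctrl, Gpr85 was at 23.4 and 15.0 CPM at 0 h and 62.5 and 64.3 CPM at 1 h. Levels went in opposite directions in DI and Ctrl, with a fitted response of -1.51 in DI and 1.72 in Ctrl and a difference of -3.23 ± 0.51 (edgeR adjusted p = 0.00149). The call of Gpr85 was lost under both limma-voom fits, with an adjusted p of up to 0.208. Gem, a small GTPase that binds calcium channels, was near the detection limit except in Ctrl at 1 h, with 0.177 and 1.27 CPM in DI at 0 h and 0.603 and 2.23 CPM in DI at 1 h. In Ctrl, Gem was at 0.32 and 0.605 CPM at 0 h and 19.6 and 41.7 CPM at 1 h. The difference of -5.13 ± 1.03 (edgeR adjusted p = 0.0216) became -3.09 (adjusted p = 0.769) without the second DI library at 0 h, and the call was also lost without the first DI library at 1 h, the first Ctrl library at 0 h or the second Ctrl library at 1 h. It was -6.42 without the second DI library at 1 h.

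Marcksl1, an actin-binding protein of the MARCKS family, and Cited2, a cofactor that competes for the coactivators CBP and p300, were lower in DI at each time. Marcksl1 was at 20.5 and 18.3 CPM in DI at 0 h and 37.0 and 35.4 CPM in DI at 1 h, against 66.2 and 74.1 CPM in Ctrl at 0 h and 458 and 407 CPM in Ctrl at 1 h. Cited2 was at 110 and 124 CPM in DI at 0 h and 203 and 183 CPM in DI at 1 h, against 161 and 161 CPM in Ctrl at 0 h and 891 and 861 CPM in Ctrl at 1 h. The differences were -1.72 ± 0.37 for Marcksl1 (edgeR adjusted p = 0.0378) and -1.72 ± 0.36 for Cited2 (edgeR adjusted p = 0.0322). Marcksl1 was called in none of the 8 fits that left out 1 library (adjusted p of 0.057 to 0.331), and Cited2 only without the first DI library at 0 h, although neither value moved outside -1.80 to -1.63. Foxp4, Lrrc63 and Bcl2a1c, each below 20 CPM in all 4 groups and named here only because they were called, had differences of -4.08, -5.48 and -5.31 log2 units. Bcl2a1c has near-identical copies among the Bcl2a1 genes, so its reads are uncertain. Foxp4 was called in 4, Lrrc63 in 1 and Bcl2a1c in 2 of the 8 fits with 1 library left out, with an adjusted p of up to 0.129, 0.182 and 0.731 in the others. Single libraries moved these values far. Foxp4 was at -6.58 without the second DI library at 1 h and -3.34 without the first. Bcl2a1c was at -7.79 without the second DI library at 1 h and -3.60 without the first DI library at 0 h. Lrrc63 was at -6.50 without the first Ctrl library at 0 h and -4.94 without the second.

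The 4 genes with a higher response in DI had little in common. The starting level in DI was low for 3 of them, but a low start itself raises the response difference and is no separate trait. Iigp1, an IFNg-induced GTPase of the IRG family that attacks parasite vacuoles, was at 55.1 and 36.5 CPM in DI at 0 h and 1360 and 1070 CPM in DI at 1 h. In Ctrl, Iigp1 was at 276 and 261 CPM at 0 h and 1750 and 1800 CPM at 1 h. The fitted log2 fold change of DI over Ctrl was -2.55 before the stimulus and -0.55 at 1 h, which gave a response difference of 2.00 ± 0.39 (edgeR adjusted p = 0.0193). The call was lost, with an adjusted p of at most 0.122, without the second DI library at 0 h, the first DI library at 1 h, the first Ctrl library at 0 h or either Ctrl library at 1 h. Arid5a, an RNA-binding protein known to stabilise Il6 mRNA, had no read in either DI library at 0 h and 62.3 and 58.2 CPM in DI at 1 h. In Ctrl, Arid5a was at 1.76 and 2.02 CPM at 0 h and 83.7 and 89.5 CPM at 1 h. The call of Arid5a was lost with counts divided by the estimated reads per molecule. Against the floor of 3 reads over the group it was at least 288-fold higher at 1 h than at 0 h in DI, and 45.9-fold higher in Ctrl. That bound counts reads, at an estimated 3.58 and 5.65 reads per molecule in the DI libraries at 0 h. A bound in molecules would be lower. The edgeR adjusted p was 0.0193, but 0.0948 and 0.228 without the first and the second DI library at 0 h and 0.0554 without the first Ctrl library at 1 h.

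Tmem67, which encodes a membrane protein of the primary cilium, was at 0.177 and 0.231 CPM in DI at 0 h and 8.44 and 6.69 CPM in DI at 1 h. In Ctrl, Tmem67 was at 7.60 and 6.85 CPM at 0 h and 10.8 and 11.8 CPM at 1 h. Its response difference was 4.39 ± 0.69 log2 units (edgeR adjusted p = 0.00149). The call of Tmem67 was lost under both limma-voom fits and in the fit of only the 8 libraries, with an adjusted p of up to 0.601. The value was 6.20 with counts divided by the estimated reads per molecule. The DI values at 0 h rest on 1 and 2 reads, in libraries where 15.4% and 29% of the genes with 4 to 12 expected reads were at 0. Mapk8ip3, a scaffold of the JNK pathway, was at 20.5 and 31.1 CPM in DI at 0 h and 31.7 and 33.8 CPM in DI at 1 h. In Ctrl, Mapk8ip3 was at 30.4 and 32 CPM at 0 h and 5.69 and 7.25 CPM at 1 h. Only the Ctrl libraries at 1 h were low, and the difference of 2.59 ± 0.55 (edgeR adjusted p = 0.0355) was called in 1 of the 8 fits with 1 library left out (without the second DI library at 0 h), with an adjusted p of up to 0.255 in the others.

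The interferon branch gave 1 call. Of 22 IFNg-induced genes, all tested, 1 (Iigp1) was called higher and 0 lower, where 0.0375% of all genes were called higher. The list's median difference was 0.00. The median fitted response was 1.94 log2 units in DI and 1.84 in Ctrl, and the list's median log2 fold change of DI over Ctrl was -1.09 at 0 h and -0.97 at 1 h. Irf1, a transcription factor that drives later interferon-induced genes, was at 63.8 and 91.4 CPM in DI at 0 h and 1620 and 2560 CPM in DI at 1 h. In Ctrl, Irf1 was at 106 and 77.7 CPM at 0 h and 2080 and 1850 CPM at 1 h. The groups overlapped at each time, and the difference was 0.33 ± 0.37 (edgeR adjusted p = 1, interval -0.44 to 1.10). Socs3, an inhibitor of cytokine signalling, had 0.04 ± 0.61 (edgeR adjusted p = 1, interval -1.21 to 1.29). Among 33 type I interferon-stimulated genes edgeR called 0, with 2 at an unadjusted p under 0.05, and the median difference was -0.09 log2 units. Cxcl10, a chemokine gene on that list, leaned higher with 1.59 ± 0.36 (edgeR adjusted p = 0.0549). It was at 18.6 and 19.2 CPM in DI at 0 h and 2640 and 3200 CPM in DI at 1 h, against 65.8 and 64.6 CPM in Ctrl at 0 h and 3920 and 2740 CPM in Ctrl at 1 h, so the libraries of DI and Ctrl overlapped only at 1 h.

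Acod1, the gene of the enzyme that makes itaconate, was at 62.9 and 93.6 CPM in DI at 0 h and 3310 and 4170 CPM in DI at 1 h. In Ctrl, Acod1 was at 118 and 92.2 CPM at 0 h and 4240 and 4010 CPM at 1 h. The response difference was 0.28 ± 0.41 (edgeR adjusted p = 1, interval -0.57 to 1.13). Of 18 chemokine genes tested, Cxcl2 was called lower and 0 higher, with a median of -0.68 log2 units, or -0.57 with the 3 genes at 0 in a group set at the floor. Of 22 cytokine genes tested, Tnfsf9 was called lower and 0 higher, with a median of -0.17, or -0.76 with the 7 genes that were at 0 in a group set at the floor. Medians with genes at the floor mix fitted values with bounds and are no estimates. Both lists also hold genes with too few reads at 0 and 1 h to be resolved. Among genes of cytokine signal feedback, 12 tested, Tnfaip3 was called lower, and the median was -0.35. Beside the calls in these lists, 0.216% of all genes tested were called lower. The lists of LPS receptor and adaptor genes (22 tested), JAK-STAT genes (12), mRNA decay regulators (10), heat shock genes (15), glycolysis and HIF1A targets (19), metallothioneins (7), macrophage identity genes (20) and cell cycle genes (26) each had 0 calls by edgeR, and their medians lay between -0.31 and 0.08 log2 units. At an unadjusted p under 0.05 these 8 lists held 0, 1, 2, 1, 0, 2, 2 and 0 genes in that order. The markers of neutrophils (9 tested), dendritic cells (4), lymphocytes (2), fibroblasts (6) and erythroid, megakaryocyte and mast cells (2) also had 0 calls, with 1 gene of the last list at an unadjusted p under 0.05. The 13 reference genes had 0 calls, also without adjustment, and a median of -0.08, with Actb at -0.09 ± 0.42.

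The 2 h libraries, which do not enter the contrast, show where levels of DI and Ctrl still differed. DI and Ctrl differed at 2 h in 665 genes (6.24%), of which 242 were higher in DI (2.27%) and 423 lower (3.97%). Of the 23 genes with a lower first-hour response in DI, 13 were called lower in DI at 2 h, 2 were called higher (Slc7a11 and Ednrb) and 8 were not called. Their median difference of DI from Ctrl was 1.07 log2 units at 0 h, -2.18 at 1 h and -1.27 at 2 h. The genes were chosen on the libraries at 0 and 1 h, and that choice itself favours a wider distance at 1 h than at 2 h. The 2 h values are level differences and include any distance present at 0 h, such as 4.98 for Slc7a11 and 4.58 for Ednrb. Of the 4 genes with a higher response, 1 was called lower at 2 h (Tmem67) and 3 were not called. Tnfsf9 was at 3.63 and 15.7 CPM in DI at 2 h, against 303 and 203 CPM in Ctrl at 2 h.

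The change of the response difference between 1 and 2 h was tested in the same fit, as the step in DI minus the step in Ctrl. No gene was called (0 of 10663, 0%) by edgeR, with a smallest adjusted p of 0.119 and with 721 genes at an unadjusted p under 0.05 (273 higher and 448 lower). DESeq2 called 18 genes in the same contrast and limma-voom 0. Tnf was at 1080 and 1270 CPM in DI at 2 h, against 1350 and 1520 CPM in Ctrl at 2 h, and its change of 1.68 ± 0.37 log2 units did not pass the test (edgeR adjusted p = 0.201). Egr1 was at 89.6 and 65.8 CPM in DI at 2 h, against 156 and 149 CPM in Ctrl at 2 h, and its fitted distance of DI from Ctrl was -2.79 log2 units at 1 h and -0.97 at 2 h. Ptgs2 reached 1080 and 1190 CPM in DI and 1780 and 2670 CPM in Ctrl. Because this contrast shares the 1 h libraries with the first-hour difference, a chance deviation at 1 h would enter the pair with opposite signs.

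**Figure D5:**
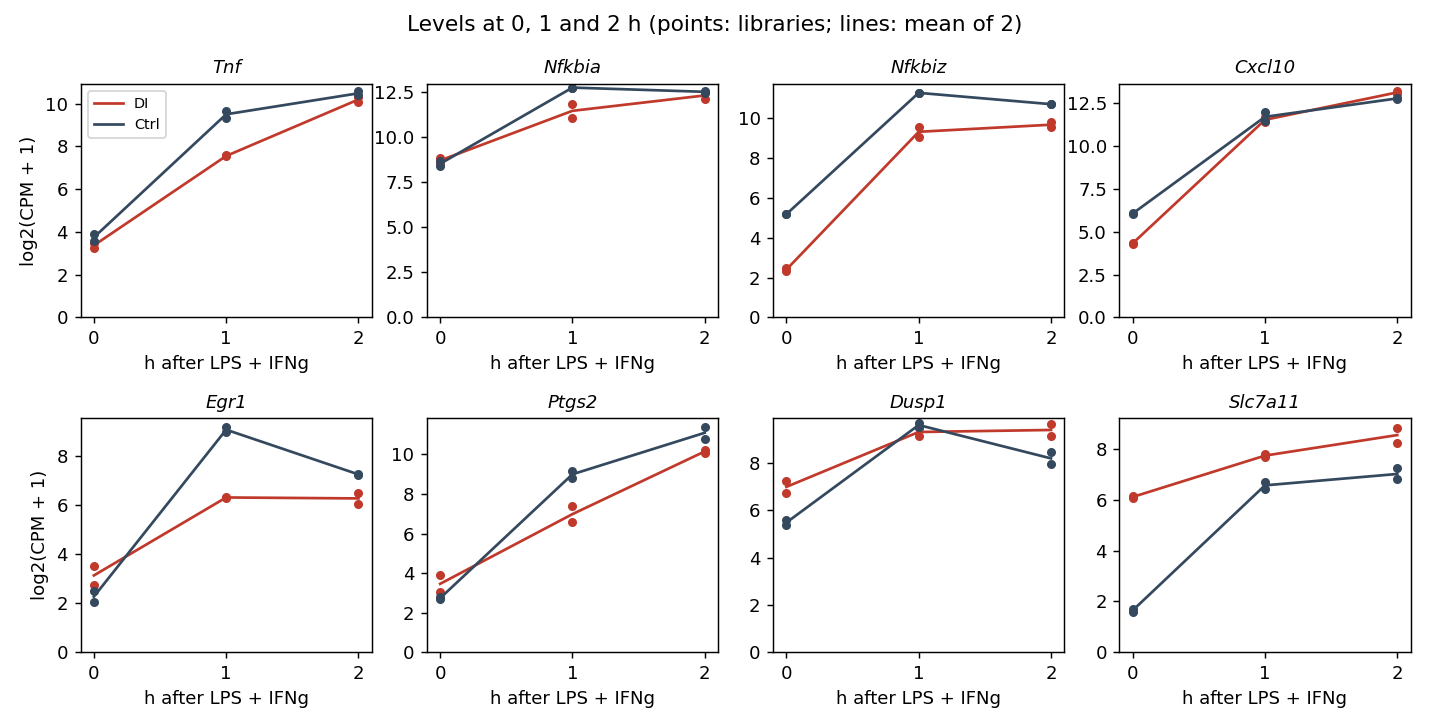
Levels as log2(CPM + 1) at 0, 1 and 2 h after LPS + IFNg for 8 genes, DI in red and Ctrl in dark blue, points for libraries and lines through the means of 2. Tnf and Egr1 in DI lie well below Ctrl at 1 h and nearer to it at 2 h, Nfkbiz in DI is below Ctrl at all 3 times, and Slc7a11 in DI is above it at all 3 times.

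Promoter sequence was available for 20 of the 27 called genes, 18 with a lower and 2 with a higher response, as the 250 bases before each RefSeq transcript start (RefSeq, GRCm38.p6, the assembly also known as mm10). A match to the kB consensus, the binding motif of NF-kB, was present on either strand in 5 of the 18 (27.8%), against 8.23% of 27025 genes in the table. The CArG box, bound by serum response factor, was present in 2 of 18 (11.1%), against 1.62% of genes. The interferon-stimulated response element (GAAANNGAAA), the cyclic AMP response element (TGACGTCA) and the AP-1 site (TGANTCA) were in 1 of 18 each (5.56%), against 3.46%, 1.77% and 7.82% of genes, and the antioxidant response element (TGACNNNGC) was in 4 (22.2%), against 11.5%. Some genes have several transcript starts, such as Egr2 with 5 windows, and so more bases in which to match. Stretches around kB matches and CArG boxes are shown for 3 of the 6 genes chosen for display, as examples of an NF-kB feedback gene, a chemokine and an immediate-early gene, with the matched letters of that motif in capitals and each written along the transcript's strand.
Tnfaip3, chr10:19015411-19015555, minus strand: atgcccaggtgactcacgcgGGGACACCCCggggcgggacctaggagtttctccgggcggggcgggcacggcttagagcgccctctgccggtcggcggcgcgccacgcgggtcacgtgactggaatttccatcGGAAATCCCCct
Cxcl2, chr5:90903782-90903832, plus strand: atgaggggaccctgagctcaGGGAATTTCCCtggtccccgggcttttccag
Egr2, chr10:67535362-67535412, plus strand: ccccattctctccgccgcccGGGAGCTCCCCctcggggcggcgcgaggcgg
Egr2, chr10:67537474-67537523, plus strand: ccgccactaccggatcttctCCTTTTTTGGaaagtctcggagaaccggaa
Egr2, chr10:67537777-67537826, plus strand: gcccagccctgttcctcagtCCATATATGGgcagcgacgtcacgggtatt
The capitals mark kB matches in the first 3 stretches and a CArG box in the other two. The Tnfaip3 stretch also holds an AP-1 match and the last Egr2 stretch an antioxidant response element match, both left in lower case. The Tnfaip3 stretch ends 1 base before its transcript start and holds 2 separate kB matches, and in Cxcl2 and in the first Egr2 stretch 2 overlapping matches, 1 on each strand, share the capitals. Of the other genes chosen for display, Slc7a11, Traf1 and Ptgs2 did not have these motifs in their windows. A match is a run of letters and no measurement of binding, and no test was made of these shares.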

How the data were processed

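RNA was counted from barcoded oligo-dT 3' end libraries, pooled after first-strand synthesis and amplified for 12 PCR cycles, per the labels' protocols. The authors deposited raw read counts per Ensembl gene for 20 libraries; STAR, HTSeq and DESeq2 and the build mm10 are named in the submitters' processing notes, with no version, option or order. Gene symbols came from a GENCODE table and matched 21745 of 22165 genes (98.1%). No molecular identifiers are given, so reads copied from the same molecule cannot be told apart. The floors count reads and not molecules. The intervals rest on the spread of the counts between libraries, which may be technical.

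From the counts, edgeR 4.0.16 (R 4.3.3) was used with its default filter on low counts by group, TMM scaling and a robust quasi-likelihood fit of 10 group means over all 20 libraries, so that the spread is shared with the other times. Levels are CPM with TMM factors. Calls need a Benjamini-Hochberg adjusted p under 0.05 over all genes tested, and standard errors are the fold change over the root of F. Genes are named where they were called with at least 20 CPM in a group and had one of the 14 lowest or 14 highest differences. Others are the called members of a list with the smallest p, or come from a panel of 48 genes (47 tested, 9 called). Ednrb, Tnfaip2, Marcksl1, Cited2, Il27, Il12a, Il23a and the called genes under 20 CPM were added after their values were seen. Of the 27 called genes, 1 is counted but not reported here. Members and lists were chosen with earlier results of these data known. Replicates of a group differed by more than sampling noise (chi-square per gene of 19.5 to 50.5), so none was counted as a duplicate. limma 3.58.1 and DESeq2 1.42.0 served as alternatives, and the procedure was tested on simulated data. Promoter windows came from RefSeq.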

Additional observations from a re-analysis of the deposited data

Results flagged for a closer look

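The 26 called genes below are listed here because the response to the same stimulus differed between DI and Ctrl by a test of the difference itself (edgeR's quasi-likelihood test, adjusted p under 0.05). Values are log2 response differences, DI minus Ctrl, with 2 libraries in each of the 4 groups. Among genes tied to NF-kB and early cytokine signalling they were -7.33 for Tnfsf9, -3.43 for Tnfaip3, -2.91 for Traf1, -2.85 for Ptgs2, -2.50 for Cxcl2 and -2.01 for Tnfaip2. Among immediate-early factors and phosphatases they were -3.86 for Egr1, -3.27 for Egr2, -3.07 for Ier2, -4.15 for Dusp2 and -2.64 for Dusp5. Stress genes and surface receptors had -4.33 for Ppp1r15a, -3.81 for Slc7a11, -4.28 for Tarm1, -2.34 for Ednrb and -3.23 for Gpr85. The remaining lower responses were -5.48 for Lrrc63, -5.31 for Bcl2a1c, -5.13 for Gem, -4.08 for Foxp4, -1.72 for Marcksl1 and -1.72 for Cited2. The higher responses were 2.00 for Iigp1, 2.59 for Mapk8ip3, 4.39 for Tmem67 and 5.91 for Arid5a, and the value of Arid5a is no bound, since both DI libraries at 0 h had no read of it.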

How the results depend on the processing

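The response difference called 27 genes. The count was 60 with no filter on low counts (18 higher and 42 lower), 51 with the DESeq2 Wald test (9 higher and 42 lower), 15 with limma-voom, 14 with limma-voom and quality weights by treatment, and 13, all lower, when only the 8 libraries of the contrast entered the fit. It was 31 with DESeq2 size factors and 31 with TMM factors of genes of at least 32 CPM, which moved the median of all genes by -0.048 and -0.052 log2 units. Leaving out 1 library at a time gave 14 to 28 calls, with 14 without the first Ctrl library at 1 h and 16 without the first Ctrl library at 0 h; a group left with 1 library was assumed to vary like the others. Same-numbered libraries showed no deviation common to all groups, with 6 correlations of -0.164 to 0.213, of which 1 was over 0.1. The fit with the replicate block called 22. The change from 1 to 2 h had 0 calls, but 37 with no filter, 18 with the DESeq2 Wald test, and 0 to 11 with 1 library left out (11 without the first DI library at 2 h, 1 without the second, and 1 without the first DI library at 1 h). Of 27 genes, 13 remained called without any 1 of the 8 libraries, 11 under every other setting that tested them, and 9 under both, among them Tnfsf9, Ppp1r15a, Tarm1, Egr1, Slc7a11, Tnfaip3, Traf1 and Cxcl2. Of 1225 gene values under alternatives 0 changed sign while called, 128 lost and 18 gained a call, and the cause was not tested. The 1225 include genes not called in the main fit, which could not lose a call. Sign changes of genes that stayed uncalled were not counted, such as Cxcl1, which ranged from -2.26 to 2.39. For genes at 0 reads in a DI group, depth allowed only a bound on the fold change.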
